A study of Mus musculus with 6 samples.

Results

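Insulin-like growth factor 1 (IGF1), its receptor and the IGF-binding proteins were followed in tumor-associated macrophages (TAMs) from WT and C5aR-/- mice. The genes were chosen by name, as the rows whose Ensembl mouse ID maps to Igf1, Igf1r, Igfbp2, Igfbp3, Igfbp4, Igfbp5, Igfbp6 or Igfbp7. These are 8 of the 56980 genes in the table, and all 8 passed the filter on low values. WT TAMs came from C57BL/6 mice, and C5aR-/- TAMs from knockout mice on the C57BL/6 background. Mice of both genotypes received ID8 cells, a mouse ovarian cancer line, into the peritoneal cavity and no other treatment, and tumors were taken after 2 months. The knockout is present in every cell type of the mouse, so a difference between the groups need not come from macrophage C5aR alone. Live CD45+CD11b+Ly6G-F4/80+ cells were sorted from dissociated tumors, and their poly(A) RNA was sequenced in 3 libraries per genotype. Each library is taken as 1 sample. The study describes its samples by mouse, with more mice per genotype than there are libraries here, and the sources used here do not tie a library to a mouse. If libraries did not come from separate mice, p-values measure only the spread between these samples. Mice were female, and 6 to 8 weeks old when obtained.

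IGF1 is a secreted growth factor made by the liver and, locally, by many stromal cells and by macrophages. It acts through the receptor tyrosine kinase IGF1R, which signals through insulin receptor substrates to PI3K, AKT and mTOR. Most IGF in tissue and blood is held by binding proteins, which carry it, keep it from the receptor or release it when proteases cut them, and several also act on cells without IGF.

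Values are TPM, a transcript abundance scaled by length and by the sum over all transcripts of a library, so that levels of different genes can be compared. How deeply each library was sequenced cannot be read from TPM, and the errors given are therefore those between libraries. Differences are C5aR-/- minus WT in log2(TPM + 1), where the 1 that is added shrinks the change of weakly expressed genes. They come from limma fitted over 14776 genes, each of which reached a TPM of 1 or more in 3 or more libraries. In bulk RNA, fewer cells of a type and less RNA per cell cannot be told apart.

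C5ar1, the targeted gene, had TPM values of 86.5, 37.3 and 16.2 in WT TAMs 1, 2 and 3. In C5aR-/- TAMs 1, 2 and 3 it was 0.38, 0.11 and 0.05. The groups did not overlap, and each library matched its label. The gene passed the filter through the WT libraries alone, since no C5aR-/- library reached a TPM of 1, and a gene that enters the test in this way can only be lower. The log2 difference was -5.04 (standard error 0.558, limma, unadjusted p = 5.43e-05, adjusted p = 0.0666), and with no filter it was the same, with an unadjusted p of 0.000135 and an adjusted p of 0.168 from limma. Without C5aR-/- TAM 1 it was -5.16, with an adjusted p of 0.022 from limma, and over all alternatives the adjusted p lay between 0.022 and 0.329.

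The sorted cells held macrophage transcripts in every library. Adgre1, which encodes the F4/80 antigen used in the sort, had TPM values of 114, 45.8 and 25.4 in the WT libraries and of 91.1, 40.1 and 27.9 in C5aR-/- TAMs. C1qa, a complement gene of tissue macrophages, had TPM values of 864, 384 and 340 in the WT libraries and of 1163, 646 and 409 in C5aR-/- TAMs. Both genes were highest in library 1 of each genotype, and the groups overlapped. Transcripts that macrophages are not known for were abundant beside them: Wt1, a mesothelial transcription factor gene, had a TPM between 331 and 451, and Krt8, an epithelial keratin gene, between 455 and 758. The values below are therefore those of the sorted population as a whole.

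Igfbp6, Igfbp5 and Igfbp2 stood above the ligand and the receptor in every library, whereas Igfbp3 had the lowest mean of the 8 genes in both genotypes. In WT TAMs the order of mean TPM was Igfbp6, Igfbp5, Igfbp2, Igfbp4, Igfbp7, Igf1r, Igf1 and Igfbp3. The ranges of Igfbp6 and Igfbp5 overlapped, as did those of Igfbp4 and Igfbp7 and those of Igf1r and Igf1, although within each WT library Igfbp6 was above Igfbp5 and Igf1r above Igf1. In C5aR-/- TAMs the order was Igfbp6, Igfbp7, Igfbp2, Igfbp5, Igfbp4, Igf1, Igf1r and Igfbp3. There the range of each gene overlapped that of its neighbor in the order.

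**Figure D1:**
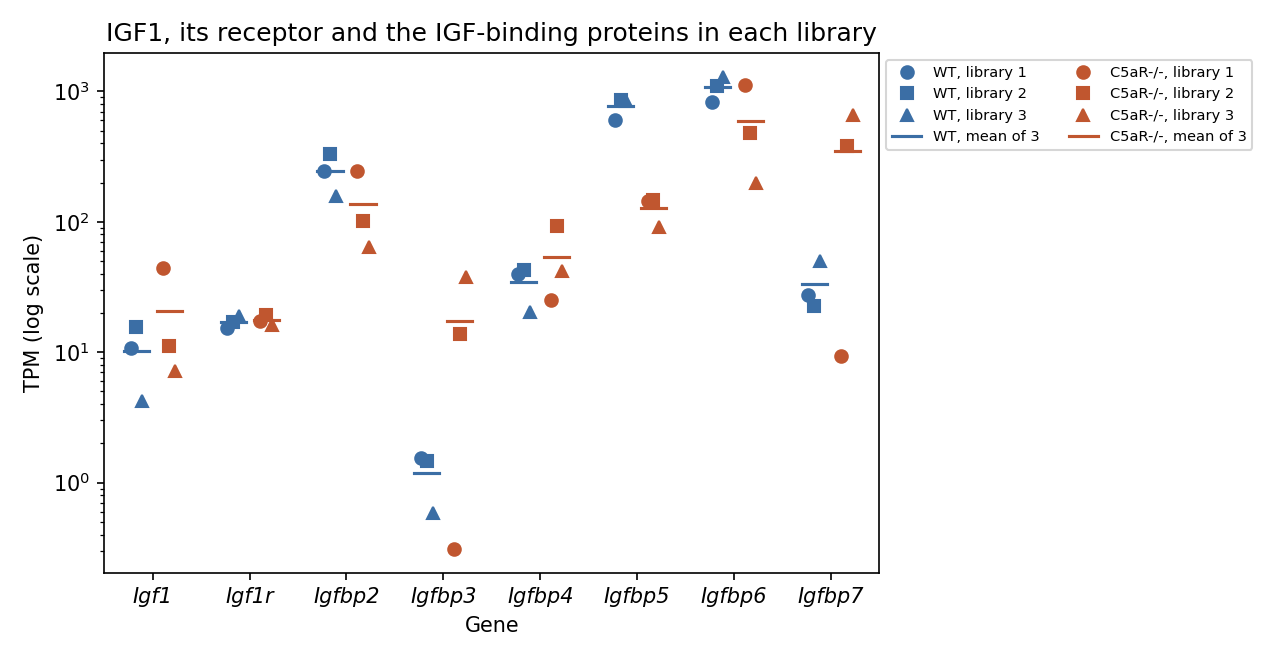
TPM of the 8 genes (vertical axis, log scale) in each library, with WT in blue and C5aR-/- in orange; marker shapes give the library number and short lines the mean of 3 libraries. Igfbp5 is the gene whose groups do not overlap, and C5aR-/- TAM 1 (circle) lies far below C5aR-/- TAMs 2 and 3 for Igfbp3 and Igfbp7.

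No gene in the table both changed 2-fold or more and had an adjusted p below 0.05 in limma (0 of 14776, or 0%), and so 0 of the 8 genes did. Adjusted p reached down to 0.0666. Before adjustment, 2133 genes had p below 0.05 at any fold change, and 733 of these changed 2-fold or more, which is called the unadjusted rule here. The adjusted count was 2 with eBayes without trend, 349 without C5aR-/- TAM 1, 1 without C5aR-/- TAM 2 and 3 without C5aR-/- TAM 3. The unadjusted count was 1220 without C5aR-/- TAM 1.

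By the unadjusted rule, 1 of the 8 genes was lower in C5aR-/- TAMs (Igfbp5), against 2.84% of all genes tested, and 0 were higher, against 2.13%. Groups did not overlap for 1 of the 8, again Igfbp5 and lower, against 12.5% of all genes tested, and for 0 in the higher direction, against 8.84%. By overlap, the share of the 8 in the lower direction is thus that of the whole table. C5aR-/- TAM 1 weighed on these counts: without it, 3 of the 8 were lower by the unadjusted rule (Igfbp2, Igfbp5 and Igfbp6), against 4.39% of 14458 genes, and 2 were higher (Igfbp3 and Igfbp7), against 4.05%. Without any 1 of the other 5 libraries the count was again 1 lower and 0 higher. The log2 difference was above 0 for 5 of the 8 and below 0 for 3, with a median of 0.27, whereas the median over all genes tested was -0.05 and 55.5% of them lay below 0. Single libraries moved that count and median. Igf1 fell below 0 without C5aR-/- TAM 1 (-0.0095). Igf1r (-0.018) and Igfbp4 (-0.014) did so without C5aR-/- TAM 2, and Igf1r also without WT TAM 1 (-0.025).

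Igf1, the ligand, had TPM values of 10.8, 15.6 and 4.22 in the WT libraries and of 44.1, 11.2 and 7.17 in C5aR-/- TAMs. C5aR-/- TAM 1 was the highest of the 6, and the other 5 libraries overlapped. The mean was 10.2 ± 5.70 in WT TAMs and 20.8 ± 20.2 in C5aR-/- TAMs (SD, n = 3). C5aR-/- minus WT was 0.71 in log2 (standard error 0.705, limma, adjusted p = 0.684), smaller than the spread between libraries. Without C5aR-/- TAM 1 it was -0.0095, so that 1 library set its direction. The two-sided exact permutation test gave p = 0.5, where 3 against 3 cannot go below 0.1.

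Transcripts of the growth hormone pathway, which drives Igf1 in the liver through JAK2 and STAT5, were detected. Whether the pathway was active was not tested. Of 6 genes (Ghr, Jak2, Stat5a, Stat5b, Socs2 and Cish) 6 were tested and 0 passed the unadjusted rule in either direction. Their log2 differences ran from -0.25 to 0.68, with a median of -0.13. Ghr, the growth hormone receptor gene, had TPM values of 8.67, 7.88 and 3.55 in the WT libraries and of 1.05, 24.4 and 30.2 in C5aR-/- TAMs. It was lowest in C5aR-/- TAM 1 and highest in C5aR-/- TAMs 2 and 3, the reverse of Igf1 within that group. Jak2, the kinase bound to the receptor, had a TPM between 43.6 and 62.8, and Stat5b, its transcription factor, between 15.7 and 20.4.

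Igf2, the other IGF ligand, was at or near 0, with a TPM of at most 0.34 in all 6 libraries, and was not tested. Igf2r encodes the mannose 6-phosphate receptor, which takes up IGF2 for breakdown. It had TPM values of 31.1, 33.1 and 32.4 in the WT libraries and of 44.9, 52.3 and 51.3 in C5aR-/- TAMs. All 3 C5aR-/- libraries lay above all 3 WT libraries. Its log2 difference of 0.60 (standard error 0.126, limma, unadjusted p = 0.00219, adjusted p = 0.129) did not reach a fold change of 2. Insr, the insulin receptor gene, had a TPM between 10.8 and 22.9, and its groups overlapped. Of this list of 3 genes, 2 were tested and 0 passed the unadjusted rule in either direction.

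Igf1r, the receptor gene, was the steadiest of the 8. Its TPM was 15.2, 17.0 and 18.8 in WT TAMs and 17.4, 19.4 and 16.1 in C5aR-/- TAMs. The groups overlapped throughout, and the highest library was 1.24 times the lowest in WT TAMs and 1.21 times in C5aR-/- TAMs. Its log2 difference was 0.05, with a 95% interval from -0.33 to 0.43 (standard error 0.158, limma, adjusted p = 0.915). The sign turned without WT TAM 1 (-0.025) and without C5aR-/- TAM 2 (-0.018). The two-sided exact permutation test gave p = 0.7.

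Adaptors that couple the receptor to its pathways were mostly expressed. Of 10 listed genes 7 were tested, and 0 passed the unadjusted rule, with a median log2 difference of -0.21. Nedd4, a ubiquitin ligase, was the most abundant, with a TPM between 223 and 303. Grb2, which links receptors to RAS, had a TPM between 67.3 and 105, and Shc1, a phosphotyrosine adaptor, between 48.3 and 67.0. Sos1, a RAS exchange factor, had TPM values of 11.8, 12.99 and 12.0 in the WT libraries and of 10.4, 8.87 and 9.48 in C5aR-/- TAMs, without overlap, at a log2 difference of -0.33 (limma, unadjusted p = 0.077). Irs4 and Grb14 were under a TPM of 1 in all 6 libraries.

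All 21 genes listed for PI3K, AKT, mTOR and FOXO were tested, and 1 passed the unadjusted rule. That gene, Eif4ebp1, encodes a repressor of translation that mTOR phosphorylates. Its TPM was 29.5, 19.4 and 23.9 in WT TAMs and 34.9, 55.6 and 78.3 in C5aR-/- TAMs. All C5aR-/- libraries were above all WT libraries, at a log2 difference of 1.13 (standard error 0.309, limma, unadjusted p = 0.00884, adjusted p = 0.203). The most abundant were Akt2, Akt1 and Rheb. Akt2, an AKT kinase gene, had TPM values of 134, 149 and 142 in the WT libraries and of 167, 98.2 and 67.8 in C5aR-/- TAMs, where library 1 was the highest of the 6. Akt1 had a TPM between 82.9 and 96.6 in WT TAMs and between 100.5 and 111 in C5aR-/- TAMs, without overlap, at a log2 difference of 0.22 (limma, unadjusted p = 0.114). Rheb, the GTPase that activates mTOR, had a TPM between 76.1 and 94.3, with overlapping groups. Over the 5 pathway lists, 38 of 48 genes were tested, 1 was higher and 0 lower by the unadjusted rule, and the median log2 difference was 0.03.

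Igfbp5 was the binding protein that differed most evenly between the genotypes. It encodes a secreted protein that binds IGF with high affinity and also attaches to extracellular matrix. Its TPM was 603, 866 and 843 in WT TAMs and 145, 148 and 92.0 in C5aR-/- TAMs. Every C5aR-/- library lay below every WT library, and the libraries within a group stayed close, with the highest 1.44 times the lowest in WT TAMs and 1.61 times in C5aR-/- TAMs. The mean was 771 ± 146 in WT TAMs and 128 ± 31.3 in C5aR-/- TAMs (SD, n = 3), a 6.01-fold difference of means. The log2 difference was -2.59, with a 95% interval from -3.16 to -2.02 (standard error 0.240, limma, unadjusted p = 1.76e-05, adjusted p = 0.0666). By unadjusted p it ranked 3 among the 14776 genes tested. Without C5aR-/- TAM 1 the log2 difference was -2.69 with an adjusted p of 0.0165 in limma, and over all alternatives it lay between -2.76 and -2.37 with an adjusted p between 0.0165 and 0.386. The two-sided exact permutation test gave p = 0.1, the smallest that 3 against 3 allow.

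Igfbp2 encodes a binding protein that can also bind integrins, and its gene lies beside Igfbp5 on chromosome 1. In the GRCm38 annotation Igfbp2 spans chr1:72824503-72852474 on the plus strand and Igfbp5 spans chr1:72857932-72874884 on the minus strand, so that their 3' ends face each other across 5457 bases. The TPM of Igfbp2 was 246, 332 and 159 in WT TAMs and 246, 102 and 63.7 in C5aR-/- TAMs. C5aR-/- TAM 1 lay within the WT range and C5aR-/- TAMs 2 and 3 below it, so the groups overlapped. The log2 difference was -0.999 (standard error 0.509, limma, unadjusted p = 0.0924, adjusted p = 0.425), and the exact permutation test gave p = 0.2. The change was -1.53 without C5aR-/- TAM 1 (limma, unadjusted p = 0.00437, adjusted p = 0.08), and without C5aR-/- TAM 3 it was -0.57, with adjusted p between 0.08 and 0.815 over all alternatives.

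Igfbp6, which encodes a binding protein that prefers IGF2 to IGF1, had the highest mean TPM of the 8 in both genotypes. It was at TPM values of 823, 1109 and 1298 in the WT libraries and of 1117, 477 and 199 in C5aR-/- TAMs. As for Igfbp2, C5aR-/- TAM 1 lay within the WT range and the other 2 C5aR-/- libraries below it. In log2 the difference was -1.16 (standard error 0.586, limma, unadjusted p = 0.0905, adjusted p = 0.421), and the exact permutation test gave p = 0.3. The change was -1.78 without C5aR-/- TAM 1 (limma, unadjusted p = 0.00383, adjusted p = 0.0761), and without C5aR-/- TAM 3 it was -0.53, with adjusted p between 0.0761 and 0.775 over all alternatives.

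Igfbp7 encodes a secreted relative of the family that binds IGF only weakly and is deposited in the matrix around vessels. Its TPM was 27.5, 22.4 and 50.1 in WT TAMs and 9.33, 385 and 657 in C5aR-/- TAMs. C5aR-/- TAM 1 was the lowest of the 6 libraries and C5aR-/- TAMs 2 and 3 were the highest, so that the highest C5aR-/- library was 70.5 times the lowest. The mean was 33.3 ± 14.7 in WT TAMs and 351 ± 325 in C5aR-/- TAMs (SD, n = 3). This gave a log2 difference of 2.09 (standard error 1.48, limma, adjusted p = 0.563), within the spread between libraries, and the exact permutation test gave p = 0.4. Without C5aR-/- TAM 1 the log2 difference was 3.96, with an adjusted p of 0.0165 in limma, and without C5aR-/- TAM 3 it was 0.96. The adjusted p lay between 0.0165 and 0.857 over all alternatives.

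Igfbp3, whose product is the main carrier of IGF in blood, showed the same order of C5aR-/- libraries at a far lower level. It had TPM values of 1.54, 1.46 and 0.58 in the WT libraries and of 0.31, 13.9 and 37.5 in C5aR-/- TAMs. C5aR-/- TAM 1 was again the lowest of the 6, and C5aR-/- TAMs 2 and 3 the highest. It passed the filter on low values through 4 libraries, 2 of each genotype. It differed by 2.08 in log2 (standard error 1.15, limma, adjusted p = 0.455), and the exact permutation test gave p = 0.4. Without C5aR-/- TAM 1 the log2 difference was 3.48 with an adjusted p of 0.0245 in limma, and without C5aR-/- TAM 3 it was 1.04. The adjusted p lay between 0.0245 and 0.777 over all alternatives.

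Igfbp4 encodes a binding protein that holds IGF from its receptor until a protease, PAPP-A, cuts it. Its TPM was 40.1, 42.8 and 20.4 in WT TAMs and 25.2, 93.4 and 41.8 in C5aR-/- TAMs. C5aR-/- TAM 2 stood above the other 5 libraries, which overlapped. Its log2 difference was 0.48 (standard error 0.501, limma, adjusted p = 0.701), it was -0.014 without C5aR-/- TAM 2, and the exact permutation test gave p = 0.5. Pappa, which encodes that protease, had a TPM between 2.55 and 6.82, with overlapping groups.

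Of the 8 genes listed as other carriers and for cleavage of binding proteins, 2 were tested, and 0 passed the unadjusted rule. Htra1, a secreted protease gene, was the most abundant, with TPM values of 100.4, 107 and 149 in the WT libraries and of 112, 184 and 176 in C5aR-/- TAMs. Its groups overlapped through C5aR-/- TAM 1. Igfbp1, which lies next to Igfbp3 on chromosome 11, was listed at 0 in all 6 libraries, and Igfbpl1, Pappa2, Stc1 and Stc2 were under a TPM of 1 in all 6.

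The 6 binding protein genes can be added within a library, since TPM is per transcript length. Their summed TPM was 1741, 2373 and 2371 in WT TAMs and 1543, 1218 and 1092 in C5aR-/- TAMs. All 3 C5aR-/- libraries lay below all 3 WT libraries, which holds for 12.5% of all single genes tested. Of the 6 genes, Igfbp5 alone was without overlap, with a mean of 771 in WT TAMs and 128 in C5aR-/- TAMs. The means of Igfbp3, Igfbp4 and Igfbp7 were higher in C5aR-/- TAMs. The sum without Igfbp5 was not examined. The mean of the full sum was 2162 ± 364 in WT TAMs and 1284 ± 233 in C5aR-/- TAMs (SD, n = 3). Its mean log2 differed by -0.75. The two-sided exact permutation test gave p = 0.1, the smallest that 3 against 3 allow.

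The make-up of that sum also differed between libraries. For both pairs of genes below, C5aR-/- TAM 1 lay near the WT libraries, while C5aR-/- TAMs 2 and 3 lay far from them. Igfbp6 and Igfbp5 together made up 81.9%, 83.2% and 90.3% of it in WT TAMs, and 81.8%, 51.3% and 26.7% in C5aR-/- TAMs. Igfbp7 and Igfbp3 together made up 1.67%, 1.01% and 2.14% in WT TAMs, and 0.625%, 32.7% and 63.6% in C5aR-/- TAMs. Igfbp5 alone made up between 34.6% and 36.5% in WT TAMs and between 8.43% and 12.1% in C5aR-/- TAMs, without overlap. Igfbp6 was the most abundant binding protein in every library but C5aR-/- TAM 3, where Igfbp7 was.

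**Figure D2:**
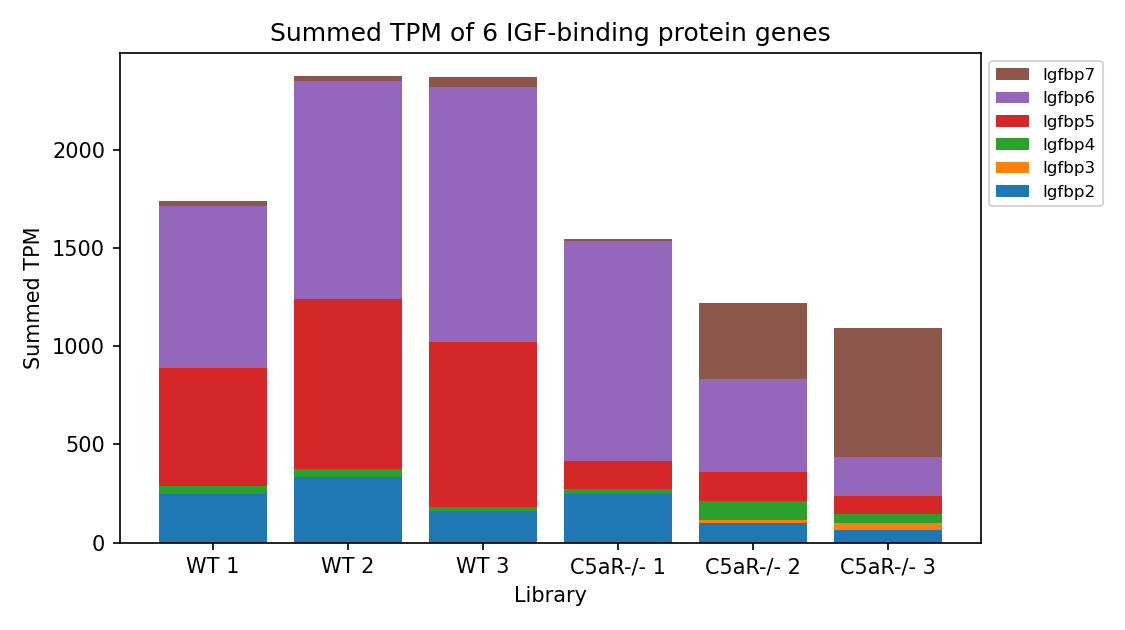
Summed TPM of the 6 binding protein genes (vertical axis) in each library, stacked by gene. The red block, Igfbp5, is smaller in all 3 C5aR-/- libraries, and the brown block, Igfbp7, is large only in C5aR-/- TAMs 2 and 3.

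Igf1 was a small share of the 8 genes in every library. Of their summed TPM it made up 0.61%, 0.648% and 0.176% in WT TAMs and 2.75%, 0.899% and 0.643% in C5aR-/- TAMs. The groups overlapped, and C5aR-/- TAM 1 was the highest. The mean was 0.478% ± 0.262 in WT TAMs and 1.43% ± 1.15 in C5aR-/- TAMs (SD, n = 3), a difference of 0.952 percentage points with p = 0.2 in the two-sided exact permutation test. Without C5aR-/- TAM 1 the difference was 0.293 percentage points.

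The genes with the patterns most like 3 of the members were found by Pearson r over the 6 libraries, among 9201 genes with a mean TPM of at least 10. These are descriptions of 6 points, without a test. Closest to Igf1 were Tpd52 (r = 0.988), Gatad2b (0.984), Krt18 (0.980), Galk2 (0.978) and Igkv6-25 (0.976). Tpd52 had TPM values of 69.3, 81.8 and 58.6 in the WT libraries and of 107, 72.4 and 68.6 in C5aR-/- TAMs, with C5aR-/- TAM 1 the highest, as for Igf1. Closest to Igfbp6 were Faah (r = 0.9996), Tmem184a (0.998), Dop1b (0.997), Etnk2 (0.997) and Marcksl1 (0.994). Faah, which encodes a fatty acid amide hydrolase, had TPM values of 18.5, 22.5 and 24.8 in the WT libraries and of 21.9, 12.95 and 6.98 in C5aR-/- TAMs, so that C5aR-/- TAM 3 was the lowest, as for Igfbp6. Closest to Igf1r were Psenen (r = 0.972), Efs (0.971), 1600014C10Rik (0.958), Spata13 (0.957) and Pdlim4 (0.943). Psenen, a subunit gene of gamma-secretase, had a TPM between 108 and 148, and like Igf1r it was lowest in WT TAM 1 and highest in C5aR-/- TAM 2.

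Markers of other cell types were set beside the binding proteins. For comparison with the counts below, 2.84% of all genes tested were lower and 2.13% higher by the unadjusted rule. Without overlap, 12.5% of all genes tested were lower and 8.84% higher. Where a marker gene is called the most abundant of its list, its mean TPM was the highest in both genotypes. Of 8 mesothelial genes 8 were tested, and 4 were lower and 0 higher by the unadjusted rule. Their summed TPM was 2102, 2169 and 2698 in WT TAMs and 1851, 2078 and 1209 in C5aR-/- TAMs, and Krt19 was the most abundant. Muc16 encodes a surface mucin of mesothelium and ovarian cancer. It had TPM values of 142, 147 and 148 in the WT libraries and of 39.2, 36.6 and 10.2 in C5aR-/- TAMs, without overlap. Upk3b, Upk1b and Lrrn4 were the others that were lower by the unadjusted rule. Gpm6a was also lower without overlap, at a log2 difference of -0.85 below a fold change of 2. The log2 difference was below 0 for 7 of the 8, with a median of -0.98. Msln, also a mesothelial gene, was higher in all 3 C5aR-/- libraries, with TPM values of 145, 135 and 180 in the WT libraries and of 268, 284 and 288 in C5aR-/- TAMs, at a log2 difference of 0.88 below a fold change of 2. Wt1 overlapped between the groups. None of the 8 was at 0. The CD45+CD11b+F4/80+ gate should leave out mesothelial cells and the injected ID8 cells. Whether the transcripts of this list came from mesothelial or from ID8 cells was not examined. The part of RNA from either in the values of Igfbp5, Igfbp2 and Igfbp6 was not tested.

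Fibroblast genes did not share 1 order over the libraries. Some were, like Igfbp7 and Igfbp3, lowest in C5aR-/- TAM 1 and highest in C5aR-/- TAM 3, and others ran the opposite way. Col1a1, a collagen gene, had TPM values of 3.52, 7.13 and 10.8 in the WT libraries and of 1.21, 43.3 and 236 in C5aR-/- TAMs, where libraries 2 and 3 were above all WT libraries. Col3a1, another collagen gene, had TPM values of 13.4, 24.4 and 25.6 in the WT libraries and of 1.71, 11.7 and 27.2 in C5aR-/- TAMs. Pdgfra, a growth factor receptor gene of fibroblasts, had TPM values of 9.56, 13.5 and 13.01 in the WT libraries and of 4.44, 9.51 and 26.7 in C5aR-/- TAMs. For both, C5aR-/- TAM 1 was the lowest and C5aR-/- TAM 3 the highest of the 6, and C5aR-/- TAM 2 lay below all WT libraries. Col1a2, whose product joins that of Col1a1 in type I collagen, was below all WT libraries in all 3 C5aR-/- libraries and lowest in C5aR-/- TAM 1, with TPM values of 4.50, 10.3 and 23.6 in the WT libraries and of 1.75, 2.31 and 2.46 in C5aR-/- TAMs. Of 8 fibroblast genes 6 were tested, and 2 were lower (Col1a2 and Thy1) and 0 higher by the unadjusted rule. The summed TPM of the list was 411, 487 and 644 in WT TAMs and 567, 444 and 476 in C5aR-/- TAMs. Dcn, a proteoglycan gene and the most abundant of the list, had TPM values of 373, 411 and 531 in the WT libraries and of 548, 372 and 180 in C5aR-/- TAMs, highest of the 6 in C5aR-/- TAM 1 and lowest in C5aR-/- TAM 3. Thy1 was likewise higher in C5aR-/- TAM 1 (10.3) than in C5aR-/- TAMs 2 (4.63) and 3 (2.98). Lum and Dpt were under a TPM of 1 in all 6 libraries. The same gate should leave out fibroblasts, and the part of fibroblast RNA in the values of Igfbp7 and Igfbp3 was not tested.

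Genes that define endothelial cells, which are known to express Igfbp7, were low in every library. Cldn5 was listed at 0 in all 6, Cdh5 had TPM values of at most 0.21, and Emcn and Egfl7 were under 1. The summed TPM of 8 endothelial genes was 13.8, 19.1 and 16.1 in WT TAMs and 28.8, 18.9 and 12.3 in C5aR-/- TAMs, with Pecam1 the most abundant. In C5aR-/- TAM 1 the sum held a TPM of 14.3 from Tek, which was between 0.16 and 4.79 in the other libraries. Of the 8, 4 were tested and 0 passed the unadjusted rule. Mural cell genes were also low, with a summed TPM over 7 genes of 6.24, 8.64 and 14.3 in the WT libraries and of 6.11, 17.4 and 11.2 in C5aR-/- TAMs. Rgs5, Myh11 and Pdgfrb were under 1 in all 6 libraries, Acta2 was the most abundant, and 0 of the 2 genes tested passed the unadjusted rule. The part of endothelial and mural RNA in the values of Igfbp7 and Igfbp3 was not tested.

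The summed TPM of the macrophage list, to which Lyz2 added most in every library, spread widely within each genotype. Its 11 genes, all tested, summed to a TPM of 8951, 3686 and 2578 in the WT libraries and of 8857, 5050 and 2577 in C5aR-/- TAMs, with 0 past the unadjusted rule. The log2 difference was above 0 for 8 of the 11, with a median of 0.48. Fcgr1, an Fc receptor gene, had TPM values of 13.6, 8.60 and 11.3 in the WT libraries and of 26.6, 18.2 and 16.9 in C5aR-/- TAMs, without overlap, at a log2 difference of 0.82 (limma, unadjusted p = 0.0131), while the groups overlapped for the other 10. Library 1 of each genotype was the highest. C5aR-/- TAM 1 was also the library that stood apart for Igf1, Igfbp3 and Igfbp7, but WT TAM 1 did not stand apart in that way. Among WT libraries it lay between the others for Igf1 (10.8) and Igfbp7 (27.5) and was the highest for Igfbp3 (1.54). The 8 genes of tissue-resident macrophages summed to 850, 493 and 173 in WT TAMs and to 876, 309 and 93.0 in C5aR-/- TAMs. Gas6 was the most abundant of these, and 1, Timd4, was lower by the unadjusted rule. The part of macrophage content in the values of Igf1 was not tested.

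Epithelial genes, which mark ID8 cells among others, summed over 8 genes to 1016, 1013 and 937 in the WT libraries and to 1465, 1162 and 1237 in C5aR-/- TAMs, without overlap. Krt8 and Krt18 made up most of each sum. The other genes tested, Krt7, Epcam and Cdh1, had log2 differences of -0.69, -0.32 and -0.09, and the median of the 5 tested was -0.09. By mean TPM, Krt18 was first in WT TAMs and Krt8 in C5aR-/- TAMs, 0 passed the unadjusted rule, and Cldn4, Cldn7 and Pax8 were under 1 in all 6 libraries. The CD45+ gate should leave out ID8 and other epithelial cells, and their part in the values of Igf1 and the binding proteins was not tested.

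Lists of other blood and immune cells were measured for the same reason. Of 8 mast cell genes 7 were tested, and 5 were lower (Cpa3, Tpsb2, Cma1, Mcpt4 and Hdc) and 1, Kit, higher by the unadjusted rule. Mcpt4 passed the filter through the WT libraries alone, as C5ar1 did, and could only be lower. The summed TPM of the mast cell list was 171, 170 and 197 in WT TAMs and 70.4, 82.2 and 92.8 in C5aR-/- TAMs, without overlap. Hdc had the highest TPM of the list in all 3 WT libraries, and Kit in all 3 C5aR-/- libraries. Of 7 neutrophil genes 6 were tested and 4 were lower (S100a8, S100a9, Cxcr2 and Csf3r), with a summed TPM of 953, 2325 and 630 in the WT libraries and of 216, 394 and 31.2 in C5aR-/- TAMs and S100a9 the most abundant. The sort kept CD11b+Ly6G-F4/80+ cells, which should leave out neutrophils and mast cells, and the part of either list in the values of Igfbp5 was not tested.

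Lymphoid and dendritic cell lists had 1 gene past the unadjusted rule. Of 7 T cell genes, all tested, that 1 was Cd2, which was lower and had the highest mean TPM of the list in WT TAMs but not in C5aR-/- TAMs, where Trac had it, and the summed TPM was 52.5, 74.6 and 102 in WT TAMs and 69.9, 55.6 and 23.1 in C5aR-/- TAMs. For 6 B cell genes, with 0 past the unadjusted rule, it was 522, 401 and 88.7 in WT TAMs and 505, 180 and 37.1 in C5aR-/- TAMs, with Ighm the most abundant. For 7 dendritic cell genes, with 6 tested and 0 past the unadjusted rule, it was 52.0, 49.5 and 42.8 in WT TAMs and 93.1, 70.2 and 31.8 in C5aR-/- TAMs, with Ccr7 the most abundant.

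**Figure D3:**
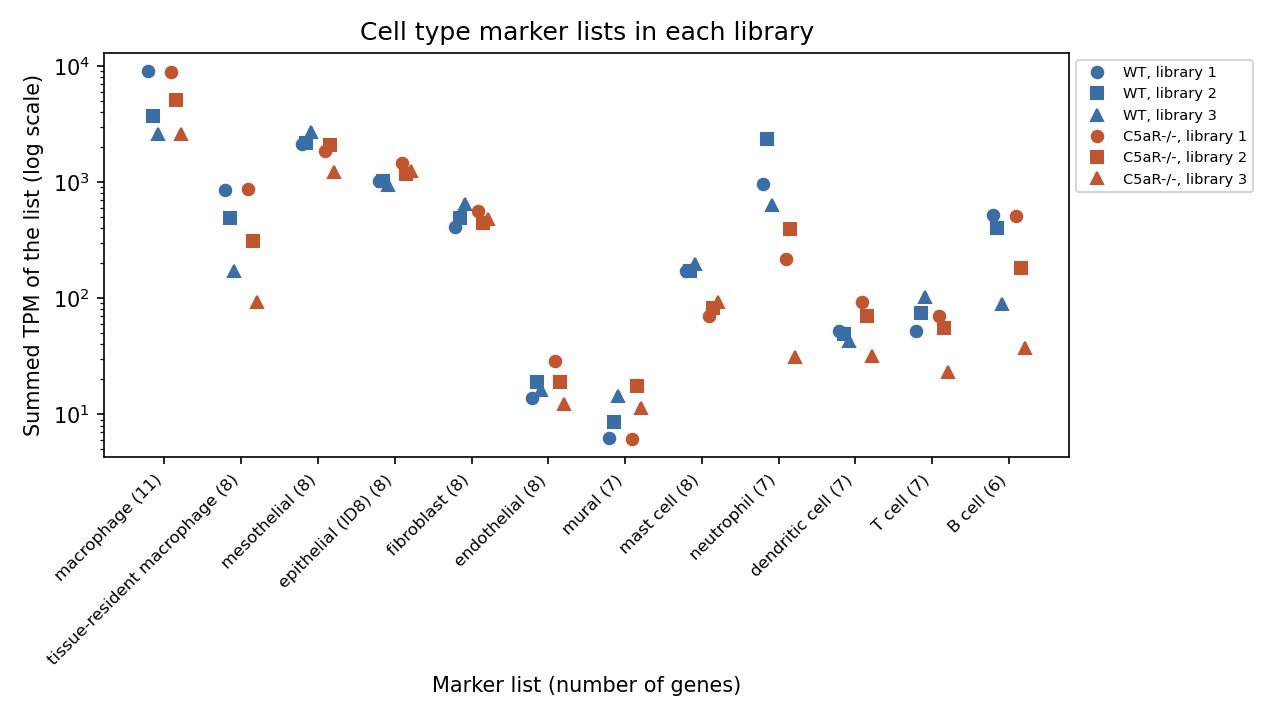
Summed TPM of each marker list (vertical axis, log scale) in each library, with WT in blue, C5aR-/- in orange and marker shapes for the library number. The macrophage list is highest in library 1 of each genotype, and the endothelial and mural lists stay below 30 in all 6 libraries.

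Promoters are shown for the binding proteins on which the comparison turned: Igfbp5, which was lower in all 3 C5aR-/- libraries, and Igfbp7 and Igfbp3, which were high together in C5aR-/- TAMs 2 and 3. RefSeq promoter sequences (GRCm38.p6) were matched for 8 of the 8 genes, and the 250 bases before the RefSeq start are given 5' to 3' on the strand of the gene. Distances are counted from that start, which can differ from the end of the gene span in the annotation used above. For Igfbp5 that span ends at chr1:72874884, so the window reaches into it. The windows are chr1:72874866-72875115 on the minus strand for Igfbp5, chr5:77408046-77408295 on the minus strand for Igfbp7 and chr11:7213924-7214173 on the minus strand for Igfbp3. Capitals mark matches, on either strand, to 6 motifs. The core promoter element to which TBP binds was searched as TATAAA, and a variant of it as TATTTAAA. The box bound by factors of the SP1 family was searched as GGGCGG, that of the AP-1 family as TGANTCA and that of the NF-Y family as CCAAT. The core of the hypoxia response element was searched as ACGTG.
Igfbp5: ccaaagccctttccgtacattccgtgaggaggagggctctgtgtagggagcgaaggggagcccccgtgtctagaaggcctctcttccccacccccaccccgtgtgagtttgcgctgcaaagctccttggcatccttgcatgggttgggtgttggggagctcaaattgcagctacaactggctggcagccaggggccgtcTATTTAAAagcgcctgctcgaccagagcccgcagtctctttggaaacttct
Igfbp7: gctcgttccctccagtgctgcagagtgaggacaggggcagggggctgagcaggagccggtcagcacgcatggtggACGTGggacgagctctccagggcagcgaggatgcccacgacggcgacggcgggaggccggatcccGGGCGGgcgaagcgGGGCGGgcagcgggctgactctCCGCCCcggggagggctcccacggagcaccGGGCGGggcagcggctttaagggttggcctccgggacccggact
Igfbp3: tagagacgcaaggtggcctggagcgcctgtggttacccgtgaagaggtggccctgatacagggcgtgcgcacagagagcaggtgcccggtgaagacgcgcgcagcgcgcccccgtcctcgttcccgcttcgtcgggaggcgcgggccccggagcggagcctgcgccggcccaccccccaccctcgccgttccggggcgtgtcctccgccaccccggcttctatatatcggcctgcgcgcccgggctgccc
Igfbp5 held 1 match, TATTTAAA, whose first base lies 51 bases before the start. Of all 32851 windows of the same length, 1.71% held that motif. Igfbp7 held GGGCGG in 4 places, which 32.7% of windows held at least once, and ACGTG in 1, which 16.6% held. Igfbp3 held none of the 6. Its window does hold the stretch tatatat near the start, which is AT-rich and was not among the forms searched. No match to TATAAA or TATTTAAA therefore does not mean that a promoter lacks a TATA-like element. TATAAA was found in 12.4%, TGANTCA in 6.75% and CCAAT in 33.8% of all windows. The G and C content was 58.8% for Igfbp5, 74.0% for Igfbp7 and 73.2% for Igfbp3, against a median of 52.4% over all windows. The motifs were chosen after the expression values had been seen, and a match describes letters in the sequence, not a bound site.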

How the data were processed

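RNA sequencing values of TAMs from 3 WT and 3 C5aR-/- libraries were used as TPM deposited by the authors. Reads had been trimmed with fastp and aligned with HISAT2; StringTie is named for quantification in the methods and RSEM in the submitters' processing notes, with the mm10 build, and versions are not given in the sources used here. The table also holds 2 columns of the authors' mean TPM, which equal the group means and were not used. Symbols and gene coordinates were taken from GENCODE M21 (GRCm38), which may differ from the authors' annotation. For a symbol shared by several IDs, the ID of highest mean TPM was kept.

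TPM was transformed as log2(TPM + 1). Genes that reached a TPM of 1 or more in 3 or more libraries were tested with limma 3.58.1 (lmFit, eBayes with trend) in R 4.3.3 and adjusted by Benjamini-Hochberg over all 14776 genes; the test was checked on simulated data. Single values were tested with two-sided exact permutation tests in scipy 1.17.1 (Python 3.11.15, pandas 2.3.3, numpy 2.4.6), and plots were drawn with matplotlib 3.10.9.

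The 8 genes and all lists were chosen with earlier results of these data known. Named genes were the 8 members, C5ar1, the 3 most abundant genes of each pathway list with any that changed 2-fold or more at an unadjusted p below 0.05, and the 5 genes most correlated with Igf1, Igf1r and the most abundant binding protein. Other genes named from the pathway lists, and single genes named from the marker lists, were chosen after their values were seen. As alternatives, 0.1 was added in place of 1, the filter was dropped or raised to a TPM of 5, values were scaled by median of ratios or quantile normalized, the replicate block entered the model, eBayes ran without trend, and single libraries were left out. Leave-one-out fits applied the filter again to the 5 remaining libraries. The same fits on all 14776 genes were added after those had been seen, with the count that an earlier account of these data gives for such fits known.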

Additional observations from a re-analysis of the deposited data

How the results depend on the processing

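Under the 7 alternatives that kept all 6 libraries, the log2 difference of each of the 8 genes and of C5ar1 kept its direction and its side of the adjusted threshold. C5ar1 moved from -5.04 to -7.25 with 0.1 added in place of 1, and Igfbp3 gave no value at the filter of TPM 5, which it did not pass. The number of genes past the adjusted threshold was 0 in the fit reported and 2 with eBayes without trend, and the unadjusted count was 733, or 475 among the fewer genes tested at the higher filter (TPM of 5). With the replicate block these counts were 0 and 811. Libraries with the same number deviated from their group means with r = 0.186, -0.011 and 0.272. For libraries with different numbers r ran from -0.23 to 0.0934. The number was not taken as a pairing in the fit reported, and whether it is one was not tested. Under the block none of the 8 genes or C5ar1 changed its side of the adjusted threshold. Other genes were not examined singly under the block.

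Leaving out each library in turn, with the filter applied again, gave adjusted counts from 0 to 349 and unadjusted counts from 518 to 1220, both highest without C5aR-/- TAM 1. On the fixed set of 14776 genes, an alternative chosen after seeing the data, they ran from 0 to 356 and from 567 to 1266. Both ways gave the same range of log2 differences: Igf1 from -0.0095 (without C5aR-/- TAM 1) to 1.22, Igf1r from -0.025 (without WT TAM 1; -0.018 without C5aR-/- TAM 2) to 0.12, Igfbp3 from 1.04 to 3.48, Igfbp4 from -0.014 (without C5aR-/- TAM 2) to 0.91, Igfbp5 from -2.76 to -2.37 and Igfbp7 from 0.96 to 3.96. Igfbp3, Igfbp5, Igfbp7 and C5ar1 passed the adjusted threshold without C5aR-/- TAM 1; the cause was not tested. C5ar1 ran from -5.16 to -4.96 with the filter applied again, where it was not tested without any 1 of the WT libraries, and from -5.63 to -4.45 on the fixed set. Igfbp2 (-1.53 to -0.57) and Igfbp6 (-1.78 to -0.53) kept their direction and stayed above an adjusted p of 0.05, although both passed the unadjusted rule without C5aR-/- TAM 1.

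The difference in mean log2 of the summed binding proteins ran from -0.90 to -0.64, and that of the Igf1 share from 0.293 to 1.35 percentage points, with no change of direction. TPM carries no depth, so counting error could not be separated from the spread between libraries, and 3 libraries per genotype limit every exact test to p = 0.1 or more.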
